A study of Rattus norvegicus with 89 samples.

Results

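Immp2l, Wwox and Fhit are 3 of the 14217 named genes that the arrays measured in rat kidney, and all 3 passed the filter that left 11415 genes tested. They were grouped as long genes of fragile sites and chosen by their fall after 5 days of cisplatin, with that comparison known. The cisplatin values at day 5 are therefore a description and no test is read from them. The 3 symbols are carried by 5 of the 31099 probe sets. Each gene is represented by its brightest probe set: 1385480_at for Immp2l, 1377183_at for Wwox and 1369318_at for Fhit. The other Wwox probe sets were 1391883_at, which passed the filter with a median signal of 36.0, and 1396761_at, which lay under 33.2 on every array. That signal is the limit of the filter on low values, the 40th percentile of all values, and is no limit of detection.

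The arrays came from 89 Sprague-Dawley rats of about 7 to 8 weeks at the start, 44 males and 45 females, with 1 array per rat and RNA from the apical parts of both kidneys. Rats received gentamicin, tobramycin, cisplatin, cadmium, doxorubicin or valproic acid, and the controls received saline, for 1 day or for 5 days, and a further group was naive. Each of the 15 groups held 6 rats, 3 of each sex, except doxorubicin at day 5 (5 rats), saline at day 1 (7 rats) and saline at day 5 (5 rats). The labels used here name no dose. The treatment text is absent for 2 rats and differs from the title for 3 others, and groups follow the titles.

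These genes lie at common fragile sites, stretches of the genome that break under replication stress, and are known for very long transcription units made mostly of intron. Immp2l encodes a subunit of the mitochondrial inner membrane peptidase, which removes targeting sequences from proteins of the intermembrane space. Wwox encodes a WW-domain oxidoreductase and Fhit a hydrolase of diadenosine polyphosphates of the histidine triad family, and both are known as tumour suppressors. Cisplatin forms crosslinks in DNA that block polymerases, and the kidney's proximal tubule takes it up.

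In the RefSeq annotation of the GRCr8 assembly, Immp2l spans 899.718 kb (chr6:63797189-64696906), Wwox spans 930.922 kb (chr19:59338402-60269323) and Fhit spans 1507.501 kb (chr15:16365401-17872901). Among the 11407 tested genes with a span they rank 23, 20 and 6 by length, against a median span of 23.6 kb. The promoter windows below are shown so that a reader can see what they share. The joint fall at cisplatin day 5 is how the genes were chosen and is no reason to expect a likeness. Each runs 300 bases on the plus strand, 5′ to 3′, from RefSeq on GRCr8, and capitals mark the GC box, GGGCGG or its reverse complement CCGCCC.
Immp2l, chr6:63796979-63797278: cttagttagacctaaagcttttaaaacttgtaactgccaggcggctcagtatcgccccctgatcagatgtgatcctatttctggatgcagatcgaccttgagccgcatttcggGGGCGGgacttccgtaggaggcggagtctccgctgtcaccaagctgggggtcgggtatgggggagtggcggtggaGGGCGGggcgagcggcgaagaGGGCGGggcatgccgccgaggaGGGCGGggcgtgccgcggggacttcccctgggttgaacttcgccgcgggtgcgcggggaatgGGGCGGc
Wwox, chr19:59341134-59341433: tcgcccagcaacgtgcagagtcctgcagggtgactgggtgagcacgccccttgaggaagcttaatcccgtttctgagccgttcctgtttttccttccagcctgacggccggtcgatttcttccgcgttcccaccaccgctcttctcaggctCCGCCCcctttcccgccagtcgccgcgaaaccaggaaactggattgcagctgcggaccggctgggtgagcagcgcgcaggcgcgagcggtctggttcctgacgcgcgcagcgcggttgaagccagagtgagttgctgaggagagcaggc
Fhit, chr15:16398002-16398301: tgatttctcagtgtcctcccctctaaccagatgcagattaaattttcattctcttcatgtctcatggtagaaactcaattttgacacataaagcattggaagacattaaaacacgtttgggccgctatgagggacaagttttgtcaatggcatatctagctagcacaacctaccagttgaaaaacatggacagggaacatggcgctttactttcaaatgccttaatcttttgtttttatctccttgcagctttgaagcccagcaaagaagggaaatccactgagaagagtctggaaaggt
The Immp2l window holds 5 GC boxes and the Wwox window 1, and both have 28 CpG dinucleotides, at 65% and 64% GC. The Fhit window has no GC box, 3 CpG dinucleotides and 40.7% GC, and its start site lies 32.851 kb inside the gene's annotated span. Over 33469 RefSeq promoter windows of that length, 33.1% hold a GC box on either strand, the median GC content is 51.7% and the median CpG count is 7. The letters CCAAT, searched on both strands, occur once in the Fhit window and in 37.5% of all windows. The letters TATAAA occur in none of the 3 windows and in 14.2% of all. The windows therefore differ, with those of Immp2l and Wwox on the CpG-rich side and that of Fhit on the CpG-poor side.

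Signals are given after scaling of the arrays to a common trimmed mean, in array units, and changes are differences of log2(signal + 16) from a limma fit over all 89 arrays with sex as a term. A gene is called where its Benjamini-Hochberg adjusted p over the 11415 genes is under 0.05. The added 16 makes changes of dim genes smaller than their change in signal. The deposited trimmed means differed by up to 3.84-fold between arrays before scaling.

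After 5 days of cisplatin all 3 genes were at their lowest mean of the 15 groups. Immp2l had signals of 28.9, 29.9, 31.1, 37, 48.8 and 57.2 in the 6 cisplatin rats, against 79.6, 83.9, 90.1, 105.7 and 112.9 in the 5 saline rats of day 5. The 2 groups did not overlap, and the share of all genes of which this holds is not given here. The mean was 38.8 ± 11.6 in cisplatin rats and 94.4 ± 14.3 in saline rats (SD, n = 6 and 5), a log2 change of -1.02 (SE 0.16). Of the 6 cisplatin rats 3 lay under the filter limit of 33.2, so the size of this change is less certain than its direction. With 64 added to the signals in place of 16 the change was -0.62.

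Wwox had signals of 39.3, 46.2, 68.2, 69.3, 73.8 and 133.6 in the cisplatin rats, against 103.1, 110.96, 123.2, 146.6 and 173.3 in the saline rats. The groups overlapped through female 3F122 at 133.6, and the other 5 cisplatin rats lay under the lowest saline rat. The mean was 71.7 ± 33.3 in cisplatin rats and 131.4 ± 28.6 in saline rats, a log2 change of -0.82 (SE 0.14). Probe set 1391883_at of Wwox, near the filter limit, had a change of -0.37 (SE 0.18), which is under the size seen with the brighter probe set.

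Fhit had signals of 39.5, 47.9, 53.4, 69.8, 103.1 and 136.7 in the cisplatin rats, against 70.7, 126.6, 140.3, 149.7 and 206.4 in the saline rats. The groups overlapped, with 4 of the 6 cisplatin rats under the lowest saline rat. The mean was 75.1 ± 37.7 in cisplatin rats and 138.8 ± 48.7 in saline rats, a log2 change of -0.75 (SE 0.17). For each of the 3 genes, all 6 cisplatin rats were lower than the mean saline rat of their own sex. The rats that were highest differed by gene: 3F122 for Immp2l and Wwox, and 3M23 for Fhit.

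**Figure D1:**
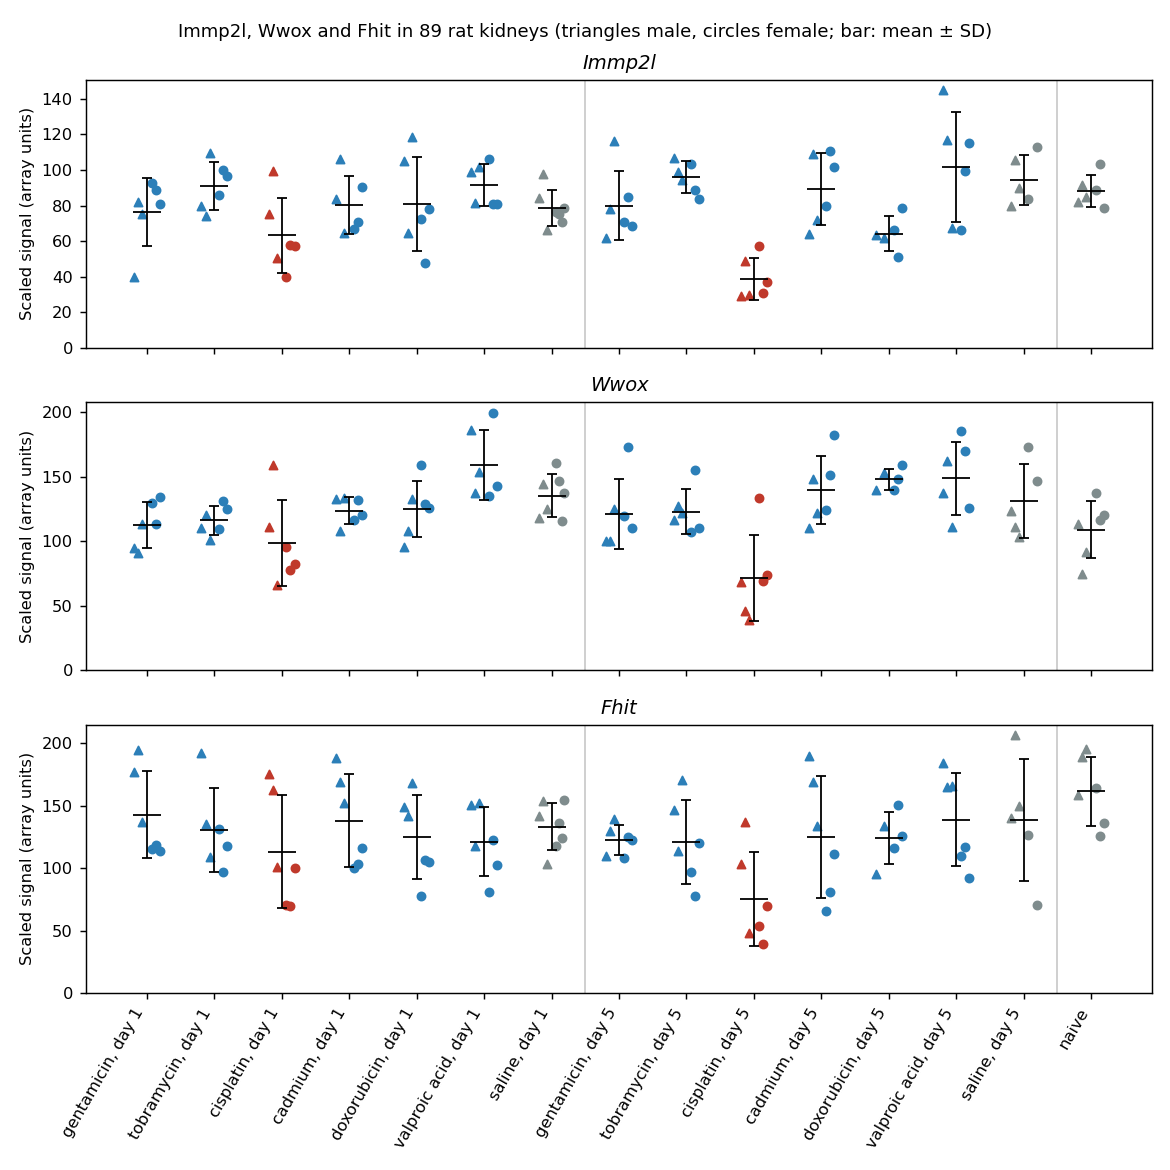
Scaled signal of Immp2l, Wwox and Fhit (array units, linear axis from 0) in every rat of the 15 groups, treatments of each day left of saline of that day and naive rats last. Bars are mean ± SD, triangles are males and circles females; cisplatin at day 5, in red, has the lowest mean of each gene, at 38.8, 71.7 and 75.1.

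In the fit, 47 of the 11415 genes were called at cisplatin day 5, which is 0.412%, and 16 of them were lower, which is 0.14%. The 3 genes are among those 16, at ranks 2 (Immp2l), 5 (Wwox) and 6 (Fhit) by size of the fall, and since this contrast chose them nothing is read from that. Just inside the limit lay Lpl, lipoprotein lipase (adjusted p = 0.0444), and Zfp318 (0.0461), and just outside it Rnf125 (0.0512) and Pla2g6 (0.0533). The count depends on the arrays fitted: with only the arrays of both groups 1 gene was called, which is 0.00876%, and the adjusted p of Immp2l, Wwox and Fhit was 0.0579, 0.251 and 0.482. Without male 3M24, 12 genes were called and Fhit was not among them, at a change of -0.62. Without saline female 1F106 19 genes were called, and without cisplatin male 3M23 84. Fhit was also not called without saline male 1M5, at a change of -0.65.

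Listed targets of p53, the transcription factor of the DNA damage response, were higher in the same rats. Ccng1, cyclin G1, a target of p53, had signals from 1161 to 2514 in cisplatin rats and from 542.1 to 707.3 in saline rats of day 5. All 4 listed p53 targets were called higher, with a median change of 1.20. Of the 11415 genes tested, 31 were called higher in this comparison. This list and that of the injury markers below were chosen with earlier results of these data known, so their counts carry no test. Of 12 tubular injury markers all had a positive change and 3 were called higher, and their summed signal ran from 5735 to 20042 in cisplatin rats and from 4412 to 7734 in saline rats. Havcr1, the injury marker KIM-1, ranged from 75.7 to 3571 among the cisplatin rats, highest in 3M24 and 3M22, and from 13.9 to 46.3 in saline rats. Without 3M22 and 3M24 the changes of the 3 genes were -0.88 for Immp2l, -0.72 for Wwox and -0.66 for Fhit.

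Markers of the kidney's cell types were set beside these values. Of 10 proximal tubule markers 8 had a negative change, with a median of -0.09 and none called, and their summed signal ran from 29995 to 41477 in cisplatin rats and from 30877 to 44754 in saline rats. Of the adipocyte markers, 4 of 4 tested had a negative change with a median of -0.73 and none called; their sum ran from 184.4 to 742.6 in cisplatin rats and from 268.9 to 1215 in saline rats, and Lep was under the filter limit in every rat. The sums of the fibroblast and endothelial markers overlapped between the groups, at 2234 to 3978 and 2309 to 3836 in cisplatin rats and 2179 to 3869 and 2775 to 3859 in saline rats. The part of these cell types in the results was not tested, and in whole tissue fewer cells of a type and less RNA per cell cannot be told apart. RNA quality moved too: the log2 ratio of the 3′ to the 5′ GAPDH control probe set was 0.36 ± 0.08 in cisplatin rats and 0.65 ± 0.54 in saline rats, where female 1F106 reached 1.58. With that ratio in the fit the changes were -1.0 for Immp2l, -0.85 for Wwox and -0.93 for Fhit.

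Cisplatin at day 1 was not used to choose the genes. All 3 had their second-lowest group mean there, and none was called (0 of 11415 genes by limma, 0%, with 515 genes at an unadjusted p under 0.05). Immp2l had signals of 40.1, 50.3, 57.1, 57.7, 75.3 and 99.5 in cisplatin rats and from 66.5 to 97.6, with a median of 76.4, in the 7 saline rats of day 1. Its log2 change was -0.29 (SE 0.15, 95% interval -0.58 to 0.00, adjusted p = 0.989).

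Wwox had signals of 65.8, 77.7, 82.4, 95.6, 111.02 and 158.9 in cisplatin rats of day 1 and from 115.5 to 160.4, with a median of 137.6, in saline rats. Its change was -0.43 (SE 0.13, adjusted p = 0.953). By unadjusted p Wwox ranked 17 of 11415, Immp2l 538 and Fhit 545. Probe set 1391883_at of Wwox went the other way, with a change of 0.30 (SE 0.17), so the probe sets of Wwox disagree at day 1. Fhit had signals of 69.9, 70.5, 100.1, 101.3, 163.1 and 175.5 in cisplatin rats and from 103.8 to 154.5, with a median of 136.4, in saline rats, a change of -0.30 (SE 0.15, adjusted p = 0.989).

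The 6 cisplatin rats of day 1 were not alike. Males 3M19 and 3M20 had Ccng1 signals of 657.9 and 730.4, within the saline range of 596.6 to 751.2, and the other 4 rats had 859.8 to 1434. Rats 3M19 and 3M20 also had the highest Immp2l, Wwox and Fhit signals of the group, at 75.3 and 99.5, 111.02 and 158.9, and 175.5 and 163.1. The other 4 lay under the lowest saline rat of day 1 for each of the 3 genes. For Wwox 3M19 did too, at 111.02 against 115.5. The share of all genes with such a pattern is not given here, so nothing is read from it. Of the 4 rats with higher Ccng1, 3M21 is male and the others are female, so this split is mixed with sex. The change at cisplatin day 1 differed between males and females by 0.75 (SE 0.28, adjusted p = 0.999) for Fhit. That difference was 0.30 (SE 0.29) for Immp2l and 0.37 (SE 0.25) for Wwox, and none was called by limma. This is a description of 6 rats, and no test was made on rats sorted by their values.

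**Figure D2:**
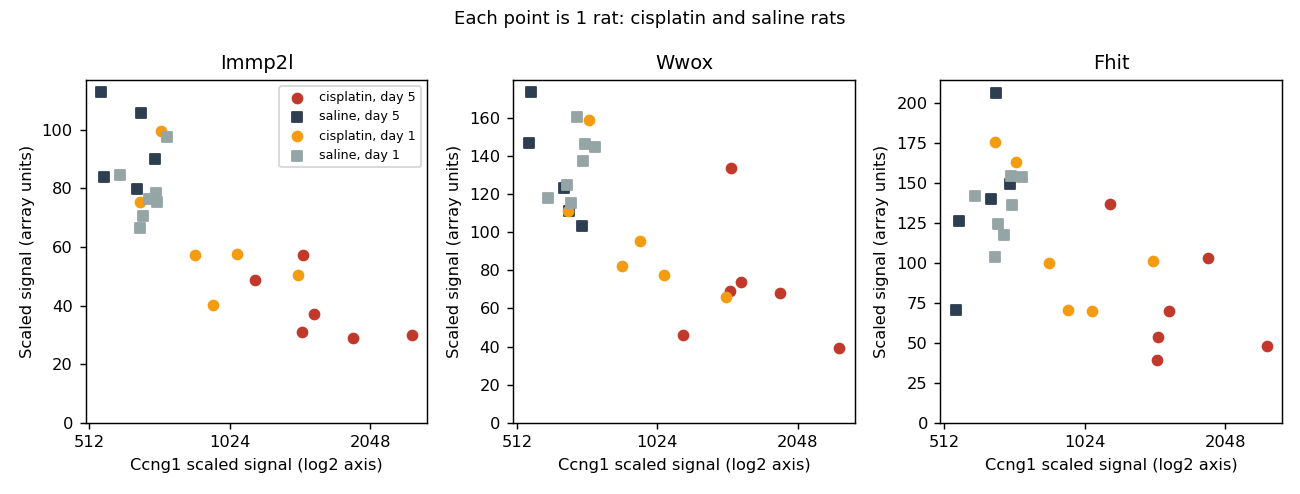
Scaled signal of Immp2l, Wwox and Fhit (vertical, array units) against that of Ccng1 (horizontal, log2 axis) in single rats given cisplatin or saline for 1 or 5 days. Rats with Ccng1 at or above 859.8 are all cisplatin rats. The 2 cisplatin rats of day 1 within the saline range of Ccng1, both males, have the highest signals of their group for each of the 3 genes.

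None of the 3 genes was called with any of the other 5 compounds. At day 1 the share of genes called was 0.123% for gentamicin, 0.517% for tobramycin, 0.0526% for cadmium, 0.0526% for doxorubicin and 0.228% for valproic acid. At day 5 it was 0.0175% for gentamicin, 0% for tobramycin (906 genes at an unadjusted p under 0.05), 0.0613% for cadmium, 0.377% for doxorubicin and 0.149% for valproic acid. The comparisons of a day share their saline rats, and those of day 5 share them with the contrast that chose the genes.

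Doxorubicin at day 5 gave the lowest Immp2l value of these 10 comparisons. Immp2l had signals of 51.2, 61.8, 63.6, 66.5 and 78.4 in the 5 doxorubicin rats, against 79.6 to 112.9 in saline rats. The groups did not overlap, but 78.4 lay close to 79.6. The share of all genes without overlap is not given here, so nothing is read from it. The change of -0.45 (SE 0.17) had an adjusted p of 0.271. Wwox and Fhit had changes there of 0.14 (SE 0.15) and 0.00 (SE 0.17), with overlapping groups. Ccng1 rose in the same rats by 0.86 (SE 0.13, adjusted p = 5.18e-06).

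In the other comparisons the log2 value of Immp2l ran from -0.21 (gentamicin day 5) to 0.19 (valproic acid day 1), that of Wwox from -0.23 (gentamicin day 1) to 0.22 (valproic acid day 1) and that of Fhit from -0.17 (valproic acid day 1) to 0.07 (valproic acid day 5). Saline against naive rats gave no call by limma at day 1 (0%) or day 5 (0%), with 771 and 1063 genes at an unadjusted p under 0.05. The log2 difference of saline minus naive rats was 0.28 (SE 0.13, adjusted p = 0.710) at day 1 and 0.26 (SE 0.14, adjusted p = 0.575) at day 5 for Wwox, and -0.22 and -0.29 for Fhit. Naive rats had a mean Wwox signal of 109.0 ± 22.3 and a mean Fhit signal of 161.6 ± 27.7, which is the highest Fhit mean of the 15 groups.

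With the 15 group means of a gene in order, neighbours differed by less than their pooled SD in 14 of 14 steps for Wwox and Fhit and in 13 of 14 for Immp2l. The exception was the step between cisplatin day 5 (38.8 ± 11.6) and cisplatin day 1 (63.3 ± 21.1). Above those, Immp2l ran from 64.3 ± 9.8 in doxorubicin day 5 to 101.6 ± 30.8 in valproic acid day 5. Wwox ran from 98.6 ± 33.4 in cisplatin day 1 to 159.01 ± 27.3 in valproic acid day 1, and Fhit from 113.4 ± 45.6 in cisplatin day 1 to 161.6 ± 27.7 in naive rats.

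Outside cisplatin day 5 the genes were weakly correlated. Over the 83 arrays outside cisplatin day 5, less the mean of each sex, Pearson's r was 0.33 between Immp2l and Wwox, 0.14 between Immp2l and Fhit and 0.11 between Wwox and Fhit, given as a description of arrays that share groups and scaling.

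The sexes differed in 2 of the 3 genes among the 18 control rats. Fhit, with 159.9 ± 32.1 in 9 males and 128.5 ± 26.4 in 9 females, was higher in males by 0.33 (SE 0.12, adjusted p = 0.0307). Wwox, with 111.7 ± 20.3 in males and 139.3 ± 19.9 in females, was lower in males (log2 difference -0.31, SE 0.11, adjusted p = 0.0225). Immp2l, with 86.9 ± 11.2 in males and 85.4 ± 14.1 in females, differed by -0.01 (SE 0.12), which was not called. Of all genes tested 31% were called in this comparison, so calls here are common. The ranges of the sexes overlapped for both genes, at 103.8 to 206.4 in males and 70.7 to 164.6 in females for Fhit and at 74.4 to 144.6 in males and 115.5 to 173.3 in females for Wwox.

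The Fhit call rested on single rats: without female 1F106, whose GAPDH ratio was 1.58, the difference was 0.21 with an adjusted p of 0.245. The Wwox call was kept in 22 of 27 alternatives, and with probe set 1391883_at the difference was -0.25 and not called. Over the 15 groups, males had the higher mean of Fhit in 13 and the lower mean of Wwox in 12. The change at cisplatin day 5 differed between males and females by -0.07 (SE 0.32) for Immp2l, -0.21 (SE 0.27) for Wwox and -0.08 (SE 0.31) for Fhit, and no gene was called by limma in that test (0%, with 1246 genes at an unadjusted p under 0.05). With 3 rats or fewer of a sex per group, these intervals are wide.

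**Figure D3:**
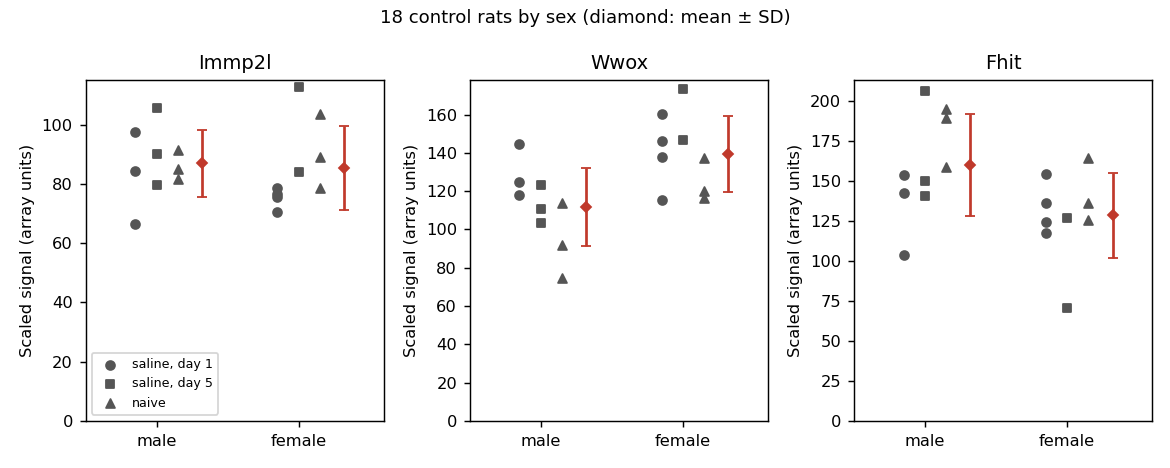
Scaled signal (array units, axis from 0) of Immp2l, Wwox and Fhit in the 18 control rats, males left of females, with the control group as the marker shape and the mean ± SD as a diamond. Fhit averages 159.9 in males and 128.5 in females, Wwox 111.7 in males and 139.3 in females, and Immp2l 86.9 in males and 85.4 in females.

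Immp2l, Wwox and Fhit were grouped as long genes and chosen by their fall at cisplatin day 5, so these values carry no test. The 16 genes called lower at cisplatin day 5 had a median span of 213 kb and the 31 called higher one of 12.8 kb. Of the 16, 9 spanned at least 100 kb, against 13.6% of all genes, and 4 spanned at least 500 kb, against 0.877% of all. Without Immp2l, Wwox and Fhit the other 13 had a median of 39.3 kb, and 6 spanned at least 100 kb and 1 at least 500 kb. Those 6 were Slc25a21, a mitochondrial oxodicarboxylate carrier (499 kb, change -1.03), Sugct, a CoA-transferase (858 kb, -0.54), Slc39a11, a zinc transporter (421 kb, -0.51), Chchd6, a protein of mitochondrial cristae (221 kb, -0.52), Ap3b1, an adaptor subunit of vesicle transport (204 kb, -0.40), and Pcca, a propionyl-CoA carboxylase subunit (340 kb, -0.39). At cisplatin day 1 their log2 values were -0.93, -0.39, -0.43, -0.23, -0.13 and -0.11 in that order, with none called.

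Of the other 11 treatment comparisons, 4 had no called fall and 3 had 2 to 4, too few to compare by span. In the 4 that remain, with 13 to 33 called falls each, none spanned 250 kb or more. The 33 genes called lower with doxorubicin at day 5 had a median span of 11.2 kb, and those called lower with tobramycin at day 1, valproic acid at day 1 and valproic acid at day 5 had medians of 27.6, 29.7 and 23.7 kb.

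**Figure D4:**
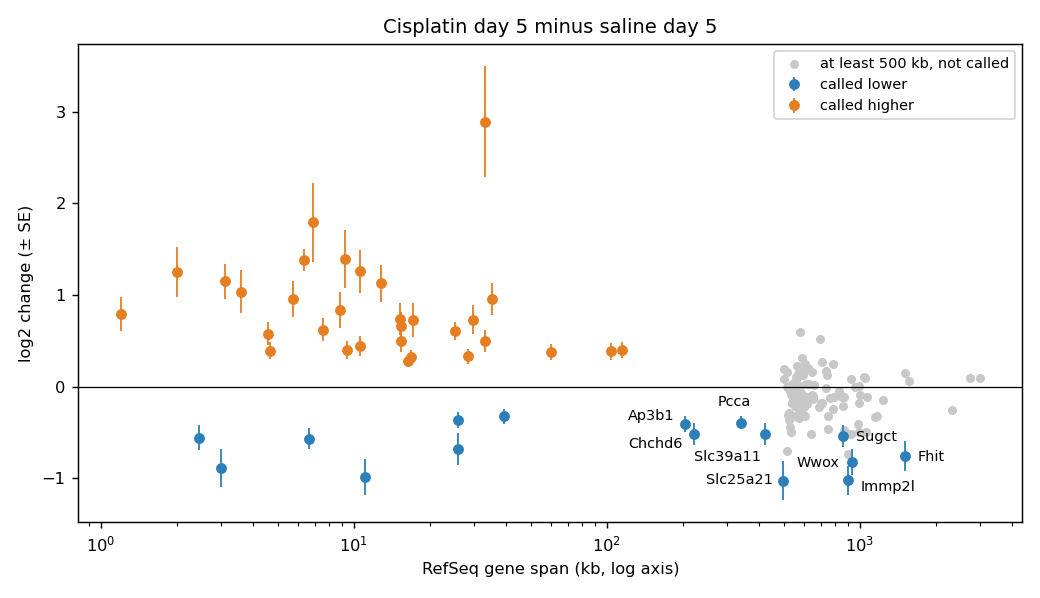
Log2 change at cisplatin day 5 against saline day 5 (vertical, bars are the SE) against RefSeq gene span in kb (horizontal, log axis) for the 47 called genes, with uncalled genes of at least 500 kb in grey. Called falls of at least 200 kb are named, and no called rise lies beyond 114.4 kb.

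The whole class of long genes was then described. The 100 tested genes of at least 500 kb had a median change of -0.11 at cisplatin day 5 and 65.0% were lower, against a median of 0.00 and 48.5% lower over all genes. The 289 genes of 250 to 500 kb had a median of -0.07, with 63.0% lower. Relative to the median of all genes the longest class lay at -0.12, or at -0.11 without the 3 genes and at -0.05 without rats 3M22 and 3M24. The longest class was dimmer than the rest, with a median level of 6.98 on the log2 scale against 7.79. In a split made after the values were seen, 56.7% of the 30 brighter genes of at least 500 kb and 68.6% of the 70 dimmer ones were lower.

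At cisplatin day 1 the longest class had a median of -0.02 with 55% lower, against 53.2% of all genes, and with doxorubicin at day 5 it had 0.04 with 41% lower. The class leaned the other way with cadmium at day 5 (0.07, 35% lower) and valproic acid at day 1 (0.07, 35% lower). An uneven share in this class is therefore not particular to cisplatin. Spearman's rho between span and change was 0.02 at cisplatin day 5 over 11407 genes. Per rat, the median log2 difference of the 97 other genes of at least 500 kb from saline rats of the same sex, minus that of all genes, ran from -0.15 to 0.00 in cisplatin rats of day 5. Saline rats of day 5, each set against the others of its sex, ran from -0.15 to 0.15; both ends are the 2 females, which mirror each other because each is set against the other. Uncalled genes in this class with large values were Pcdh9, a protocadherin, and Sorcs1, a sorting receptor, on the low side, and Adgrv1 and Grik2, a glutamate receptor subunit, on the high side.

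**Figure D5:**
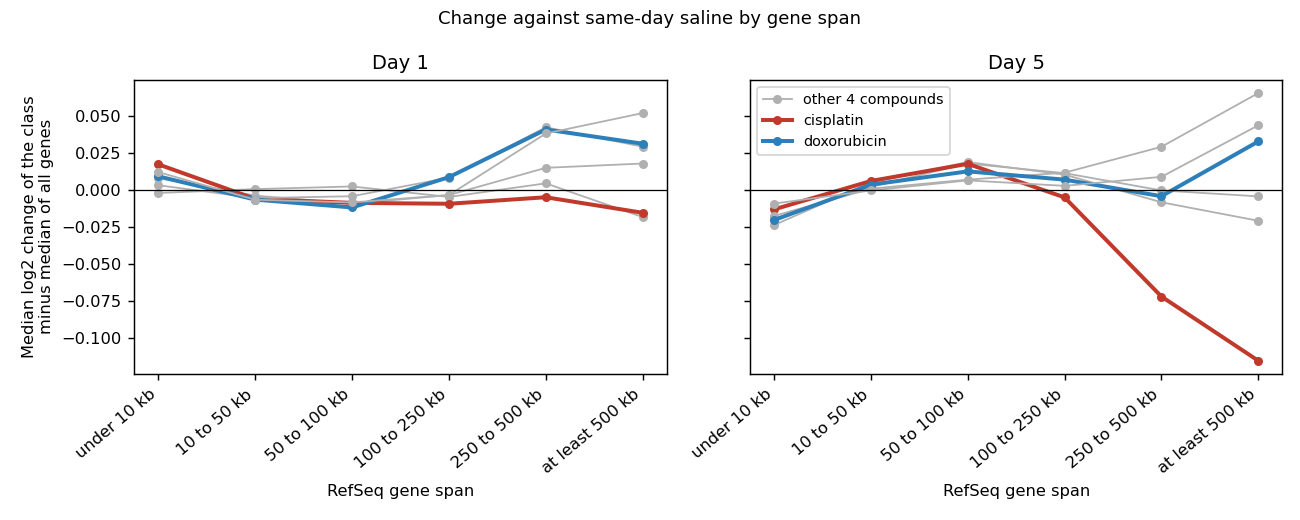
Median log2 change of each class of RefSeq gene span minus the median of all genes, for the 6 compounds against saline of the same day, at day 1 and at day 5. Cisplatin (red) at day 5 lies at -0.12 in the class of at least 500 kb, and doxorubicin (blue) lies above 0 there.

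Other large genes at or near human common fragile sites were not called. At cisplatin day 5, 0.412% of all genes tested were called, and a list this small would seldom hold a call at that share. Of 25 listed, 13 were on the array and 7 were tested, and none was called at cisplatin day 5, where 4 of 7 had a negative change and the median was -0.01, against 0.00 over all genes. Dpyd, the enzyme that starts pyrimidine breakdown, had the lowest value at -0.47 (SE 0.22, adjusted p = 0.364), and it stood at -0.50 (SE 0.20) at cisplatin day 1. Rora, an orphan nuclear receptor, had the highest at 0.18 (SE 0.14).

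The functional partners of the 3 genes were not called either. With 0.412% of all genes called, the absence of calls in lists this small is not read as a result. Immp1l, the other catalytic subunit of the peptidase, had a value of -0.14 (SE 0.10), and all 4 genes of its list, which adds the substrates Cyc1, Gpd2 and Diablo, had negative changes with a median of -0.07. Of 5 tested relatives or counterparts of Fhit, 4 had a negative change, with a median of -0.01 and Hint2 lowest at -0.20 (SE 0.09). Of 4 tested binding partners of Wwox, 2 were on each side, with Jun, a transcription factor, highest at 0.47 (SE 0.18, adjusted p = 0.248). No gene was called among 11 of nucleotide excision repair (median -0.01) or 7 that maintain fragile sites or repair crosslinks (median 0.07), where Timeless, a replication fork protein, was lowest at -0.37 (SE 0.15).

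No tested neighbour of the 3 genes was called, and with 0.412% of all genes called nothing is read from that. Maf, a transcription factor whose annotated span overlaps the end of Wwox, had a value of -0.06 (SE 0.29) at cisplatin day 5. Dock4, next to Immp2l, had 0.05 (SE 0.18), Nudt7 and Dynlrb2, beside Wwox, had 0.09 (SE 0.11) and 0.28 (SE 0.14), and Cfap20dc and Cep15, beside Fhit, had 0.20 (SE 0.14) and -0.06 (SE 0.06). Lrrn3, which lies inside Immp2l, was under the filter.

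The genes most like each of the 3 were ranked by Pearson's r. Of all tested genes with a span, 13.6% spanned at least 100 kb. Over the 15 group means, which include the group that chose the genes, the nearest to Immp2l were Atp8a2 (r = 0.84, 533 kb) and Gpm6a (0.84, 332 kb), to Wwox Chchd6 (0.95, 221 kb) and Acss2 (0.92, 43.5 kb), and to Fhit Gpc6 (0.88, 998 kb) and Sugct (0.87, 858 kb). Slc25a21 was among the nearest 5 for both Immp2l and Fhit. Over the 83 arrays outside cisplatin day 5 the likeness was weaker, and the nearest 5 to Wwox were Nrbp2 (r = 0.54, 6.33 kb), Slc25a21 (0.53, 499 kb), Kcnip4 (0.52, 1151 kb), Dock1 (0.48, 517 kb) and Ptprn2 (0.48, 752 kb). The nearest 5 to Immp2l over those arrays held 1 gene of at least 100 kb and those to Fhit 2, with the highest r at 0.44 (Eme2) and 0.65 (Adhfe1).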

How the data were processed

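Kidney transcripts were measured on single-channel Affymetrix arrays, 1 for each of 89 rats. The deposited values are a linear intensity per probe set, made with MAS5 per the submitters' processing notes, which give no version, scaling or detection call here. The members and lists were chosen with earlier results of these data known.

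Intensities were rescaled so that all arrays shared a 2% trimmed mean of 180.8 (before, 91.5 to 352), then transformed to log2(signal + 16). Left out were 57 control probe sets, 9780 that list no symbol and 436 that list more than 1. Of a gene's probe sets the brightest by mean stood for it (14217 genes), and 11415 were tested, those above 33.2, the 40th percentile of all values, on at least 5 arrays. The test was limma 3.58.1, lmFit followed by trended, robust eBayes (R 4.3.3, data.table package at 1.17.8), on all 89 arrays with sex as a term, or with a mean per group and sex for sex contrasts, with Benjamini-Hochberg adjustment at 0.05. It was tested on simulated data. Each rat is a separate animal, and the number of arrays limits the precision. Spans and promoters came from RefSeq on GRCr8, where 11407 of the 11415 symbols matched. Genes named are the 3 members, their neighbours, listed genes, the 5 most alike by each measure, called genes, those nearest the limit, and the extremes of the longest class. Alternatives changed the arrays fitted, the pseudocount (64), the normalization, the filter, the probe sets, the controls, array weights and the RNA quality term, and left out rats. Figures used matplotlib 3.10.9 in Python 3.11.15, with numpy 2.4.6 and pandas 2.3.3.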

Additional observations from a re-analysis of the deposited data

Results flagged for a closer look

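Among 45 sets of a gene and a group, 1 held a rat far from the others by Dixon's criterion, which chance meets in about 1 in 20 sets. Male 2M10, given gentamicin for 1 day, had an Immp2l signal of 39.7, and the other 5 rats of that group had 75.2 to 92.9. Its Wwox signal of 94.7 lay within the range of its group, 91.0 to 134.2.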

How the results depend on the processing

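With only the arrays of the 2 groups compared, the changes at cisplatin day 5 kept their direction but passed no limit, at -1.04 for Immp2l, -0.86 for Wwox and -0.73 for Fhit. Without 3M22 and 3M24 Fhit changed by -0.66 (adjusted p = 0.182), and leaving out single rats it ran from -0.88 to -0.62, uncalled without 3M24 or 1M5. Probe set 1391883_at of Wwox gave -0.37. The percent of genes called there, 0.412%, was 0.114% with array weights, 0.841% against naive rats, 1.37% against pooled controls, 0.00876% with the 2 groups alone and 0.0438% without 3M22 and 3M24. Leaving out single rats it ran from 0.105% (without 3M24) to 0.736% (without 3M23), and it was 0.166% without 1F106. The sex difference of Fhit was 0.20 with the GAPDH ratio in the fit, and from 0.21 to 0.45 leaving out single rats, uncalled in 7 of 18 cases. That of Wwox was -0.25 with probe set 1391883_at (limma adjusted p = 0.201), -0.31 with array weights and -0.25 with quantile normalization. Leaving out single rats it ran from -0.35 to -0.27, uncalled in 2 cases. Over all alternatives the call was kept in 22 of 27 for Wwox and in 18 of 26 for Fhit. The 43 uncalled changes and sex differences of the 3 genes stayed uncalled in all 952 alternatives, with a lowest adjusted p of 0.0517. Of these 43 results, 27 changed sign in at least 1 alternative, with 85 changes of sign in all. The causes were not tested. No paired analysis was possible because the rat codes are unique and tie no animals together across groups. Signals near the filter limit of 33.2, as for 1391883_at and for Immp2l in 3 of the 6 cisplatin rats of day 5, carry little information on size.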
